A study of Mus musculus with 36 samples.

Results

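The retinoid X receptor (RXR) genes Rxra, Rxrb and Rxrg were followed in RNA sequencing libraries of differentiating brown adipocytes. They were chosen by name, as all members of the family, and are 3 of the 55536 genes counted in each of 36 libraries. The cells came from 2 Rxra-/- clones of a brown pre-adipocyte line, numbered 48 and 66, each grown from a single cell after Cas9 had introduced frameshifts into Rxra. A retrovirus with a hygromycin marker then brought back an Rxra cDNA, either wild-type (RxraWT) or with alanine in place of serine 22 (RxraSA). The 4 resulting lines were sampled at confluence (day 0) and at days 2 and 6 of differentiation, with 3 replicates per line and day, so that each day had 12 libraries and each genotype 6 libraries per day. All lines were grown to confluence with insulin and triiodothyronine, received dexamethasone, isobutylmethylxanthine and indomethacin as well during the first 2 days, and were then kept in insulin and triiodothyronine. The libraries of clone 48 formed library pool 1 and those of clone 66 pool 2, so that clone and pool cannot be told apart. Neither parental cells nor cells with an empty vector are among the libraries analysed here.

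RXRs are nuclear receptors that bind DNA mostly as the shared partner of other nuclear receptors, among them the peroxisome proliferator-activated receptors (PPARs), liver X receptors, retinoic acid receptors, thyroid hormone receptors and the vitamin D receptor. In adipocytes the pair of PPARγ and an RXR drives the adipogenic gene programme. RXRα and RXRβ are made in most tissues, whereas RXRγ is restricted to fewer cell types, muscle and parts of the nervous system among them.

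In GRCm38 coordinates with GENCODE M21 gene models, Rxra (ENSMUSG00000015846.14) lies on the plus strand at chr2:27676440-27762957, Rxrb (ENSMUSG00000039656.17) on the plus strand at chr17:34031812-34038399, and Rxrg (ENSMUSG00000015843.10) on the plus strand at chr1:167598384-167639623. Their merged exons, over which read pairs were counted, span 5462, 3973 and 2297 bases. None of the 3 shares an exonic base with another gene, although Rxrb has 4 neighbours within 5 kb. The site that separates the genotypes is shown first, because it is the only designed difference between them. It lies in exon 2 of the transcript Rxra-201, in the coding sequence, at chr2:27737319-27737363 on the plus strand. The capitals mark the codon of serine 22, which S22A changes to alanine in the RxraSA cDNA:

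Rxra, codons 17 to 31: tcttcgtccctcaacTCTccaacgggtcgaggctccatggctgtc

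The guide RNA of the study targets the bases directly after this codon. When the proteins were aligned, Rxrb had no serine at the position of Rxra serine 22 and Rxrg had a gap there. Over the aligned residues Rxra was 72.8% identical to Rxrb and 74.2% to Rxrg, and Rxrb was 69.8% identical to Rxrg. The longest runs of identical coding sequence are given because they bound how far reads of one receptor gene could be taken for another:

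Rxra and Rxrb, 29 bases: ctggagcacctgttcttcttcaagctcat

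Rxra and Rxrg, 27 bases: catgggcatgaagcgggaagctgtgca

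No word of 31 bases was shared between the exons of any pair. Gene counts do not show the S22A substitution and do not separate transcripts of the frameshifted locus from those of the introduced cDNA, so that neither the genotype label nor the knockout could be checked from them, and an Rxra value is the sum of both sources.

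Total counts lay between 11351078 and 24349263 per library (median 18338726). Levels are CPM, read pair counts relative to library size after scaling by the trimmed mean of M-values (TMM). Groups were compared with edgeR's quasi-likelihood test over the 16723 genes that passed its expression filter, with Benjamini-Hochberg adjustment over all of them. The deposited design calls the replicates technical, while the study's methods describe its cell culture work as done in independent replicates, and the labels do not settle which holds, so the p-values measure only the spread between these libraries.

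The transcripts of the cells matched the adipocyte label, and the brown fat label only in part. All 5 markers of adipocytes examined had risen at day 2 and at day 6 (median log2 fold changes 7.99 and 8.47 against day 0), and their summed level went from 55.6 to 94.99 CPM at day 0 to 5931 to 9677 CPM at day 6. Of 7 markers of brown fat, 4 passed the filter, and these were higher at day 6 than at day 0, Cox7a1 (a muscle and brown fat form of a cytochrome oxidase subunit) with a log2 fold change of 5.37. The mean of Cox7a1 at day 0 was only 0.317 CPM, so the size of its change is uncertain. Ucp1, the uncoupling protein that defines brown fat, had at most 5 counts in any library and did not pass. All 4 tested markers of pre-adipocytes had fallen at days 2 and 6, with 2 more under the filter. The markers of macrophages and of endothelium with the highest expression were Cd68 and Pecam1, each the only one of 4 to pass, and the summed level of the endothelial list never exceeded 0.995 CPM. That of the macrophage list lay between 2.77 and 11.5 CPM, with Adgre1 and Ptprc at 1 count or less in every library. The muscle genes Acta1, Myh11 and Des had risen at day 6 (median log2 fold change 3.05 against day 0), and Myod1, which specifies skeletal muscle, had 0 counts in every library.

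Rxra rose about 3.4-fold by day 2 and had lost most of this rise by day 6. Rxrb rose about 1.6-fold by day 2 and did not change detectably after. Rxrg was at or near 0 until day 2 and was counted in all libraries at day 6, more in clone 48 than in clone 66. The peak of Rxra at day 2 was known from an earlier examination of these libraries, so its test describes its size and is not independent support for it. In cultures of this kind, more cells of a type and more RNA per cell cannot be told apart.

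Rxra, the receptor that was knocked out and brought back, had a level of 161 ± 39.8 CPM (SD, n = 12) at day 0, 542 ± 91.7 CPM at day 2 and 246 ± 53.7 CPM at day 6. At day 0 the 3 replicates of clone 48 had 191, 233 and 176 CPM with RxraWT and 170, 190 and 187 CPM with RxraSA. In clone 66 at day 0 they had 105, 134 and 155 CPM with RxraWT and 92.6, 170 and 132 CPM with RxraSA. All 6 libraries of clone 48 thus lay above all 6 of clone 66, the nearest at 170.4 and 170.1 CPM.

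At day 2 Rxra stood at 439, 605 and 712 CPM in RxraWT cells of clone 48 and at 420, 576 and 621 CPM in RxraSA cells of that clone. In clone 66 it stood at 400, 571 and 570 CPM with RxraWT and at 482, 576 and 535 CPM with RxraSA. Every day 2 library exceeded every library of day 0 and of day 6, and the clones overlapped. Replicate 1 was the lowest of the 3 in all 4 lines at day 2, for Rxra and for Rxrb alike. This was not confined to day 2. For Rxra it was lowest in 3 of 4 lines at day 0 and at day 6. For Rxrb it was lowest in 0 of 4 lines at day 0 and 4 of 4 at day 6.

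At day 6 Rxra was at 247, 244 and 347 CPM with RxraWT and at 198, 283 and 338 CPM with RxraSA in clone 48. In clone 66 the day 6 values were 187, 209 and 229 CPM with RxraWT and 182, 252 and 237 CPM with RxraSA. Day 6 overlapped day 0, with 5 of 12 libraries at or below the highest day 0 value of 233 CPM.

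**Figure D1:**
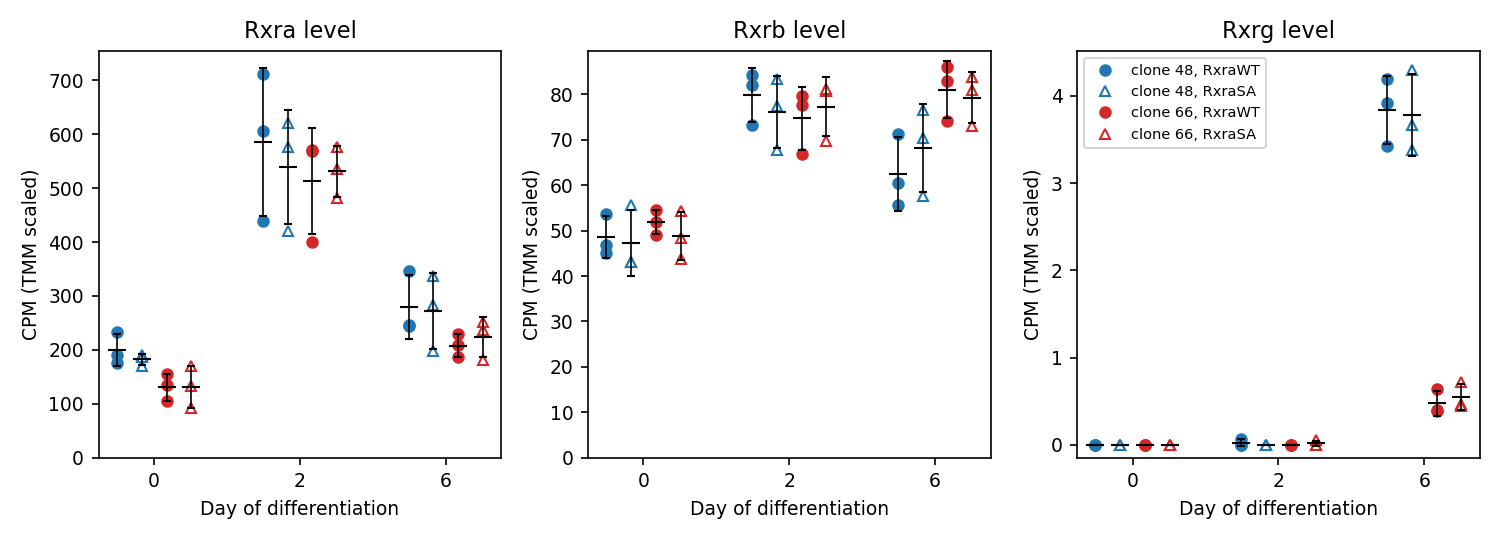
Level of each receptor gene in CPM, scaled by TMM, on the vertical axis against the day of differentiation, with 1 point per library. Blue is clone 48 and red clone 66, filled circles are RxraWT and open triangles RxraSA, and the black marks give mean and SD of 3 replicates. Rxra peaks at day 2 in all 4 lines (542 ± 91.7 CPM over 12 libraries), Rxrb rises by day 2, and Rxrg appears at day 6 at 3.81 ± 0.390 CPM in clone 48 and 0.511 ± 0.140 CPM in clone 66.

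The log2 fold change of Rxra from day 0 to day 2 was 1.77 (standard error 0.113, edgeR adjusted p = 6.14e-16), a 3.42-fold rise with a 95% interval of 2.91 to 4.01. From day 2 to day 6 it fell by 1.15 on the log2 scale (standard error 0.111, edgeR adjusted p = 4.75e-11), and at day 6 it remained above day 0 by 0.62 on that scale (standard error 0.110, edgeR adjusted p = 7.95e-06). Within the lines, the mean of day 2 was 2.92-fold the mean of day 0 in clone 48 with RxraWT, 2.95-fold with RxraSA, and 3.91-fold and 4.03-fold in clone 66. Paired by replicate number, Rxra at day 2 was 2.30-fold to 5.21-fold its level at day 0. Any pairing gives the same direction, since the libraries of day 2 did not overlap those of day 0 or day 6.

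These calls stand against a broad change of the transcriptome. Of all genes tested, 73.3% were called between days 0 and 2, 62% between days 2 and 6 and 68.3% between days 0 and 6, and of Rxra and Rxrb 2, 1 and 2 were called. The counts of calls among the receptors therefore say little on their own, and the sizes of the changes carry the description. Of all genes, 35.8% rose and 37.5% fell from day 0 to 2, 31.9% rose and 30.1% fell from day 2 to 6, and 32.9% rose and 35.4% fell from day 0 to 6. Scaling by total counts in place of TMM shifted the median over all genes by -0.26 on the log2 scale from day 0 to 2 and by -0.19 from day 0 to 6, and the share of increases among the calls then became 33.6% and 34.9%. So scaled, Rxra still had positive log2 fold changes of 1.51 and 0.43, and Rxrb of 0.39 and 0.37.

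Rxrb, the second widely made receptor, rose by day 2 as well. Its level at day 0 ranged from 43.1 to 55.6 CPM (median 48.7, mean 49.1 ± 4.78, n = 12). At day 2 it ranged from 66.8 to 84.3 CPM (median 78.6, mean 76.97 ± 6.16). At day 6 it ranged from 55.6 to 86.1 CPM (median 73.6, mean 72.7 ± 10.3). Days 0 and 2 did not overlap, while 8 of 12 libraries of day 6 lay inside the range of day 2. The log2 fold change was 0.65 from day 0 to 2 (standard error 0.0683, edgeR adjusted p = 1.95e-10) and 0.56 from day 0 to 6 (edgeR adjusted p = 5.91e-09). Between days 2 and 6 it was -0.09, with a 95% interval of -0.23 to 0.05 (edgeR adjusted p = 0.269). In clone 48 Rxrb was lower at day 6 than at day 2 in 6 of 6 pairs of the same replicate number, and in clone 66 it was higher in 5 of 6.

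Rxrg had 0 counts in all 12 libraries of day 0. At day 2 it had 1 count in 2 libraries, clone 48 with RxraWT replicate 2 and clone 66 with RxraSA replicate 3, and 0 in the other 10. A count of 0 allows up to 3 counts per library, or 0.115 to 0.243 CPM at day 0, so absence cannot be told from a level below that. No comparison between days 0 and 2 was made for this gene. It passed the expression filter through its day 6 libraries alone, and there mainly through those of clone 48, so that a difference of day 6 from the earlier days, and of clone 48 from clone 66, was built into passing.

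At day 6 the replicates of clone 48 had 55, 72 and 69 Rxrg counts with RxraWT and 66, 70 and 59 with RxraSA. Those of clone 66 had 7, 12 and 7 counts with RxraWT and 15, 9 and 10 with RxraSA. The lowest library of clone 48 thus held more than 3 times the counts of the highest library of clone 66, and the genotypes overlapped within each clone. By the exact Poisson interval, which covers counting error only, the lowest count of clone 48 had bounds of 41.4 to 71.6 and the highest of clone 66 had 8.40 to 24.7.

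Against the day 0 floor of 3 counts per library, Rxrg at day 6 was at least 21.8-fold higher in clone 48 and at least 3.68-fold higher in clone 66. Against day 2 the summed counts were 391 and 1 in clone 48 and 60 and 1 in clone 66. These differences are given as a description, with no test. Between clones at day 6, the log2 fold change of clone 66 against clone 48 was -2.88 (standard error 0.217), likewise a description, with levels of 0.511 ± 0.140 and 3.81 ± 0.390 CPM (n = 6 each). Markers moved with this difference as well. Over all genes, 26.2% were called between the clones at day 6. All 4 tested markers of brown fat were lower in clone 66 then, Cox7a1 by 1.74 and Cidea by 1.62 on the log2 scale. Cidea lay near the floor, with a mean of 0.678 CPM at day 6, so the size of its difference is uncertain. Of the 5 adipocyte markers none was called (log2 fold changes -0.70 to 0.04). Of the 4 tested pre-adipocyte markers 3 were lower in clone 66, Ly6a by 2.54 and Cd34 by 2.34 on the log2 scale, and Pdgfrb was higher (1.40). Cd34 was at 0 to 0.990 CPM at day 6, near the floor, so the size of its difference is uncertain too. The macrophage marker Cd68 was lower by 0.54, the endothelial marker Pecam1 was not called, and of the 3 tested muscle genes Myh11 and Des were higher. Between days 2 and 6 all 3 muscle genes had risen (log2 fold changes 3.44 to 4.76). The part of these genes in the Rxrg differences was not tested.

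**Figure D2:**
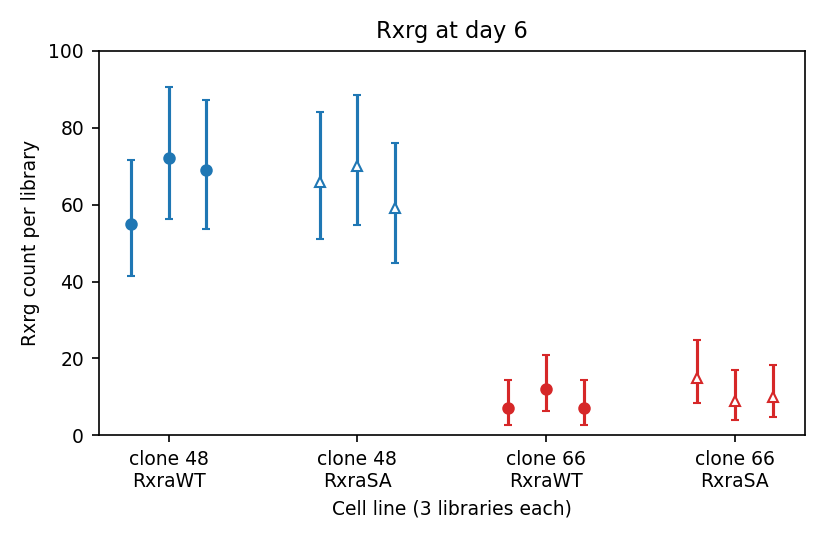
Rxrg read pair count per library at day 6 on the vertical axis for the 4 lines on the horizontal axis, with 3 libraries each. Bars are exact Poisson 95% intervals, which cover counting error only. The libraries of clone 48 (blue) have 55 to 72 counts and those of clone 66 (red) 7 to 15, with circles for RxraWT and triangles for RxraSA intermixed in each clone.

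RxraWT and RxraSA cells did not differ detectably in any of the receptor genes. This comparison asks whether loss of the phosphorylation site alters the level of the receptor itself or of its relatives. No gene was called between the genotypes at any day by edgeR (0% of those tested, with 139, 162 and 125 genes at an unadjusted p under 0.05 at days 0, 2 and 6), nor by DESeq2 or any other setting tried. Rxra was at 166 ± 45.0 CPM with RxraWT and 157 ± 37.6 CPM with RxraSA at day 0 (n = 6 each), 549 ± 114 and 535 ± 73.4 CPM at day 2, and 244 ± 55.5 and 248 ± 57.0 CPM at day 6. The difference of means was smaller than 1 SD on each day. As folds of RxraSA over RxraWT these were 0.954 (95% interval 0.766 to 1.19), 0.981 (0.788 to 1.22) and 1.02 (0.823 to 1.28), each with an edgeR adjusted p of 1. These intervals come from a model with no term for replicate number, although same-numbered libraries of the genotypes were correlated. In that model, smaller differences than the intervals span were not detectable. With a term for each replicate number within a clone, no gene was called between the genotypes either.

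The folds of Rxrb were 0.958 (95% interval 0.836 to 1.098) at day 0, 0.991 (0.866 to 1.13) at day 2 and 1.03 (0.899 to 1.18) at day 6. That of Rxrg at day 6 was 1.03 (0.773 to 1.37). In pairs of the same clone and replicate number, Rxra was higher with RxraSA in 2 of 6 at day 0, 2 of 6 at day 2 and 3 of 6 at day 6. The time course did not differ detectably between the genotypes either. The rise of Rxra from day 0 to 2 differed by 0.04 on the log2 scale (95% interval -0.41 to 0.49) and that of Rxrb by 0.05 (-0.23 to 0.33), with an edgeR adjusted p of 1 for both.

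The clones differed in Rxra before differentiation. At day 0 Rxra was at 191 ± 22.1 CPM in clone 48 and 131 ± 29.2 CPM in clone 66 (n = 6 each), a log2 fold change of -0.54 for clone 66 (standard error 0.157, 95% interval -0.86 to -0.22, edgeR adjusted p = 0.0117), where 23.7% of all genes were called. Markers differed with it on that day, with 3 of 4 tested pre-adipocyte markers (median log2 fold change -1.34), 2 of 5 adipocyte markers (range of the list -3.22 to -0.03), 1 of 4 brown fat markers and Cd68 (-0.69) lower in clone 66, and 1 of 3 muscle genes higher. Their part in the Rxra difference was not tested. At day 2 the levels were 562 ± 113 and 522 ± 69.7 CPM, a log2 fold change of -0.11 (-0.42 to 0.21, edgeR adjusted p = 0.663, with 30% of genes called). At day 6 they were 276 ± 58.1 and 216 ± 28.1 CPM, a log2 fold change of -0.36 (-0.68 to -0.04, edgeR adjusted p = 0.0960), which passed the threshold with library size alone (edgeR adjusted p = 0.0400). The change of the clone difference from day 0 to 2 was itself not called (0.43 on the log2 scale, 95% interval -0.02 to 0.89, edgeR adjusted p = 0.300). In this model, which holds no term for replicate number, neither Rxra nor Rxrb was called for such a change between any pair of days, where 6.84% of all genes were called from day 0 to 2, 6.18% from day 2 to 6 and 3.85% from day 0 to 6.

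Rxrb did not differ detectably between the clones at day 0 (log2 fold change 0.07, edgeR adjusted p = 0.637) or day 2 (-0.04, edgeR adjusted p = 0.801). At day 6 it was at 80.1 ± 5.36 CPM in clone 66 and 65.3 ± 8.53 CPM in clone 48, a log2 fold change of 0.30 (standard error 0.0910, edgeR adjusted p = 0.0154), where 26.2% of all genes were called. This call was lost without replicate 1 of clone 48 with RxraWT at day 6 (0.26, edgeR adjusted p = 0.0531), without replicate 1 with RxraSA there (0.26, edgeR adjusted p = 0.0568), with library size alone and with no filter on low counts.

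**Figure D3:**
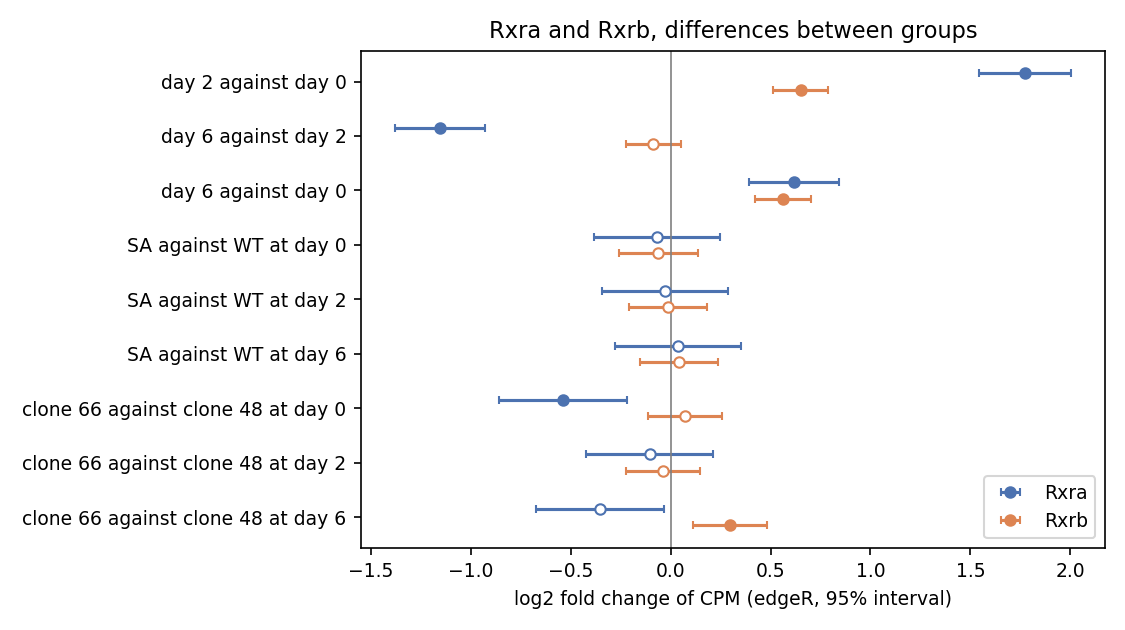
Log2 fold changes of CPM on the horizontal axis for Rxra (blue) and Rxrb (orange) between days, genotypes and clones, with edgeR's 95% intervals. Filled points have an adjusted p under 0.05. The interval of Rxra from day 0 to 2 (1.54 to 2.00) lies to the right of that of Rxrb (0.51 to 0.79), and all 6 genotype points sit near 0.

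The balance of the receptor transcripts turned towards Rxra at day 2 and back by day 6. Because a longer transcript gives more fragments, levels were compared between genes as CPM per kb of exon. On this scale Rxra had 2.41 ± 0.620 times the level of Rxrb at day 0 (SD, n = 12), 5.10 ± 0.578 times at day 2 and 2.50 ± 0.633 times at day 6. The ratio ranged from 1.40 to 3.16 at day 0, with a median of 2.39. At day 2 it ranged from 4.35 to 6.32, with a median of 5.11. At day 6 it ranged from 1.81 to 3.54, with a median of 2.34. All ratios of day 2 lay above all others, and 9 of 12 ratios of day 6 lay inside the range of day 0. Per kb of coding sequence instead (1401 bases in Rxra-201, 1572 in Rxrb-201 and 1389 in Rxrg-201), the ratios were 3.72, 7.87 and 3.86, since the choice of length scales all of them alike. An introduced cDNA need not carry the same untranslated sequence as the gene model. Neither length corrects for this, because read pairs over all exons were counted on both scales. The Rxra level also sums transcripts of the frameshifted locus and of the cDNA, in unknown parts. The ratios therefore compare transcripts and not functional receptors.

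Of the summed level of the 3 genes per kb of exon, Rxra made up 69.7% ± 6.13 at day 0, 83.5% ± 1.52 at day 2 and 69.6% ± 4.45 at day 6. Rxrb made up 30.3%, 16.5% and 29.0%. Rxrg made up 2.49% ± 0.5004 in clone 48 and 0.379% ± 0.132 in clone 66 at day 6 (n = 6 each). The sum itself was 41.9 ± 7.46 CPM per kb at day 0, 119 ± 18.1 at day 2 and 64.3 ± 10.5 at day 6. By both scales of length Rxra was the most abundant of the 3 in every library, followed by Rxrb.

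The difference in the mean log2 ratio of Rxrb to Rxra per kb was -1.12 between days 2 and 0 and 1.06 between days 6 and 2, each with p = 2.0e-05 in a two-sided permutation test within lines (100000 resamples, adjusted p = 9.0e-05 over 18 comparisons). As the known peak of Rxra at day 2 enters this ratio, these tests describe the size of the shift and are not independent support for it. Between days 6 and 0 the difference was -0.06 (permutation p = 0.442, adjusted p = 0.723). Between the genotypes it was 0.00, 0.01 and 0.02 at days 0, 2 and 6 (exact permutation p = 0.990, 0.900 and 0.795, adjusted p = 0.990, 0.990 and 0.966). These permutations did not keep same-numbered libraries of the genotypes together. Exchange within such pairs gave no call either.

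The balance differed between the clones at days 0 and 6. At day 0 the ratio of Rxra to Rxrb was 2.91 ± 0.252 in clone 48 and 1.90 ± 0.409 in clone 66, and at day 6 it was 3.05 ± 0.356 and 1.95 ± 0.164 (n = 6 each). The clones did not overlap on either day, with a lowest ratio of 2.48 in clone 48 and a highest of 2.29 in clone 66 at day 0, and 2.50 and 2.19 at day 6. The mean log2 ratio of Rxrb to Rxra was 0.64 higher in clone 66 on both days (two-sided exact permutation p = 0.005, the smallest that 400 assignments allow, adjusted p = 0.0113). At day 2 the ratios were 5.21 ± 0.757 and 4.99 ± 0.363, and the difference of 0.05 was within the spread (exact permutation p = 0.590, adjusted p = 0.885). Whether the clone difference changed between days was not tested for the ratio. For Rxrg to Rxra at day 6 the mean log2 ratio was 2.53 lower in clone 66. This is a description, because Rxrg passed the filter mainly through clone 48 at day 6.

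**Figure D4:**
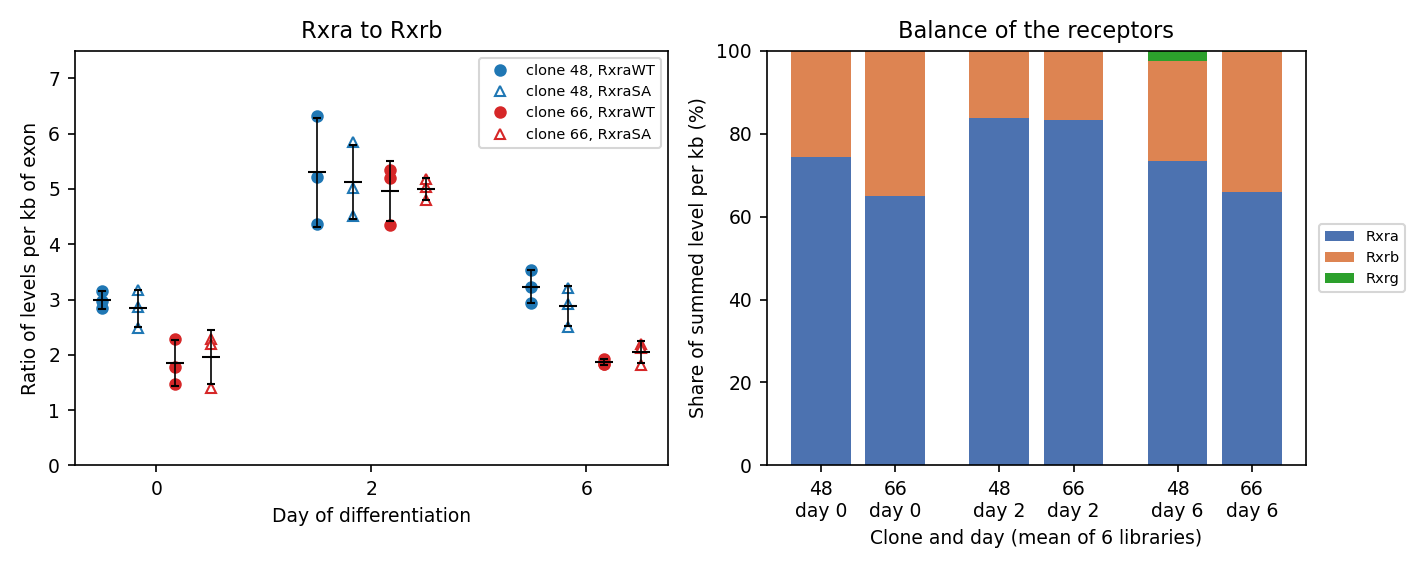
Left, ratio of the Rxra level to the Rxrb level per kb of exon on the vertical axis by day, 1 point per library with mean and SD of 3 replicates for each line. Right, mean share (%) of Rxra, Rxrb and Rxrg in their summed level per kb for each clone and day, 6 libraries per bar. The ratio is highest at day 2 (5.10 ± 0.578), and the clones are apart at days 0 and 6.

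The receptors that pair with RXRs formed 2 lists. Of 8 whose pairs with RXR can respond to RXR ligands (permissive partners), 7 passed the filter. Between days 0 and 2, 3 of these rose, 2 fell and 2 were not called, with a median log2 fold change of -0.21 against -0.02 over all genes. These counts are near the shares over all genes, of which 35.8% rose and 37.5% fell. Pparg, the master regulator of adipogenesis, rose from 75.3 to 399 CPM at day 2 and 522 CPM at day 6 (log2 fold changes 2.41 and 2.80 against day 0, edgeR adjusted p = 2.22e-23 and 4.94e-25). Nr1h3, which encodes the liver X receptor LXRα, rose from 9.99 to 35.6 and 79.9 CPM (1.82 and 2.99 on the log2 scale). Ppard rose modestly (0.56 and 0.92). Nr1h4, the bile acid receptor FXR, fell from 1.99 to 0.0928 CPM by day 2 and was at 0.0610 CPM at day 6. Nr4a1, an early response gene, fell by 1.96 by day 2. The mean levels of Pparg, Nr1h3, Ppard and Nr1h2 were highest at day 6. Between days 2 and 6, 4 of the 7 rose, 1 fell and 2 were not called. Over all genes 31.9% rose and 30.1% fell then. Pparg and Nr1h3 rose further (0.38 and 1.16 on the log2 scale). The mean of Nr1h2 went from 25.8 to 48.1 CPM and that of Nr4a1 from 2.43 to 5.45 CPM.

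Among 8 other partners 4 passed the filter, and 3 of these fell by day 2 while the fourth was not called (median log2 fold change -0.88). That 3 of 4 were called is close to the 73.3% of all genes. Rarg, a retinoic acid receptor, fell from 47.5 to 7.35 CPM and was back at 23.2 CPM at day 6. Vdr, the vitamin D receptor, fell from 39.5 to 15.3 and 2.83 CPM. Thra, a thyroid hormone receptor, fell from 136 to 108 CPM (log2 fold change -0.34). Rara was not called at day 2 (0.34, edgeR adjusted p = 0.279) and rose by day 6 (1.07). Ppara, Rarb, Thrb, Nr1i2 and Nr1i3 had at most 12 counts in any library and were not tested.

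**Figure D5:**
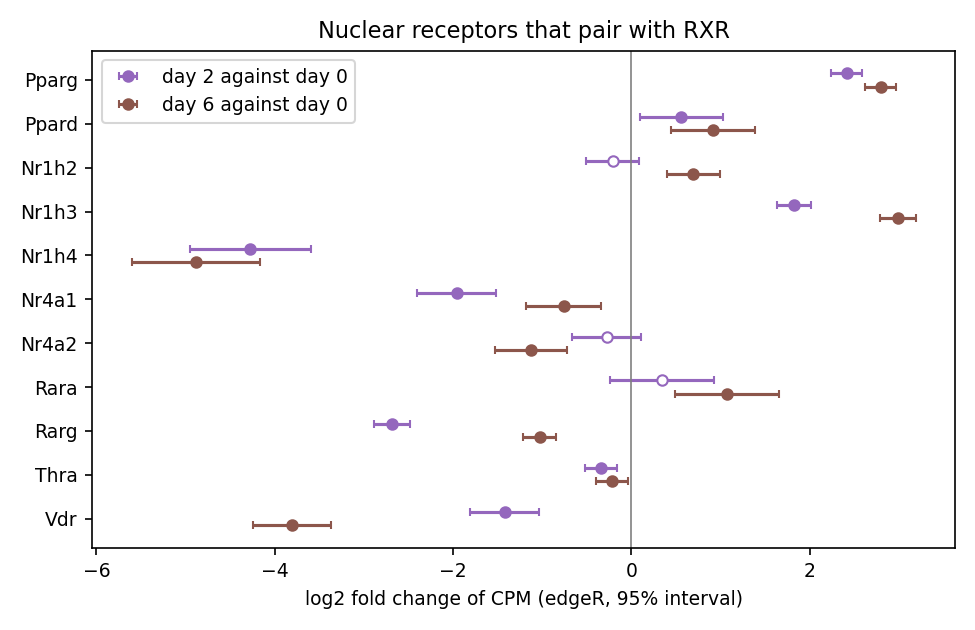
Log2 fold changes of CPM against day 0 on the horizontal axis for the 11 tested receptors that pair with RXRs, at day 2 (purple) and day 6 (brown), with edgeR's 95% intervals and filled points for an adjusted p under 0.05. Pparg (2.41 and 2.80) and Nr1h3 (1.82 and 2.99) rise, and Rarg and Vdr fall.

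Genes known to be driven by pairs with RXR were read beside the receptors. Of 14 targets of PPAR and RXR pairs 13 passed the filter, 12 rose by day 2 and 13 by day 6, with median log2 fold changes of 6.44 and 7.004, against -0.02 and -0.03 over all genes. Adipoq, Fabp4, Plin1 and Cidec among them are also adipocyte markers used above, so the lists are not independent. The shares over all genes were 35.8% up and 37.5% down by day 2, and 31.9% up and 30.1% down between days 2 and 6. At day 6, 32.9% of all genes were above day 0. The median of the targets at day 2 is 5.43 when Pck1, at 0 counts in every day 0 library, is set to its lower bound. Plin1, which coats lipid droplets, rose by 10.58 by day 2, Cd36, a fatty acid transporter, by 8.46, and Gpd1, an enzyme of glycerol synthesis, by 7.96 on the log2 scale. Plin1 had a mean of 0.194 CPM at day 0, near the floor, so the size of its rise is uncertain. Between days 2 and 6, when Rxra fell, 8 of the 13 rose further and 3 fell, among them Angptl4 (log2 fold change -2.27) and Acsl1 (-1.44). Of 6 targets of LXR and RXR pairs 5 rose and 1 fell by day 2, and all 6 rose between days 2 and 6 (0.30 to 2.25), led by the cholesterol exporter Abca1. Of 8 targets of retinoic acid receptor and RXR pairs only 4 passed, with 2 higher and 2 lower at day 2. Tgm2 rose (1.14) and Crabp2 fell (-3.05), the latter to a mean of 0.112 CPM, near the floor. The 4 that passed are too few to set against the shares over all genes. No gene of any list was called between the genotypes.

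The genes whose pattern was most like that of each receptor were sought by the correlation of log2 CPM over the means of the 12 groups of clone, genotype and day, restricted to genes that averaged 3 or more on that scale. These values describe shared patterns in the same libraries and carry no test. Rxra was closest to Riox1, a ribosomal oxygenase (r = 0.995), followed by Tmem245, Sh3pxd2a, Tmem230 and Hsd17b10, all highest at day 2. Sh3pxd2a, an adaptor protein of invasive protrusions, went from 249 to 1171 and 518 CPM. Rxrb was closest to Polg, the mitochondrial DNA polymerase (r = 0.986), and to Siah2, 4930432K21Rik, Ppp1r15a and Nt5m. Rxrg was closest to Ric8b (r = 0.988), Mmd2 (r = 0.985), Fyco1, Zeb2 and Prrg2. As Rxrg had at most 1 count in any library of days 0 and 2, all its correlations rest on its day 6 means. Those of clone 66 come from 7 to 15 counts per library. Mmd2 shared both the late onset and the gap between the clones, with 81.6 CPM in clone 48 and 1.81 CPM in clone 66 at day 6. The receptors themselves were less alike, with r = 0.723 between Rxra and Rxrb, -0.08 between Rxra and Rxrg, and 0.238 between Rxrb and Rxrg.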

How the data were processed

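The authors aligned paired-end reads of stranded total RNA libraries to GRCm38 with STAR 2.7.0d, counted read pairs on exons of GENCODE M21 genes with featureCounts 1.6.2 without using strand, and deposited raw counts with each gene's exonic length. Sample labels gave clone, genotype, day, replicate and library pool. Genes were filtered (filterByExpr), scaled (TMM) and tested with the quasi-likelihood test of edgeR 4.0.16 in R 4.3.3, with a term per genotype and day plus clone, the design of the study's methods (edgeR 3.24.3). Clone comparisons used 12 groups. Calls had a Benjamini-Hochberg adjusted p under 0.05. Ratios between receptors used (count + 0.5) per kb and permutation within lines, clones or genotypes. Of 18 ratio comparisons adjusted together, 13 were kept, the others having Rxrg at its floor in both groups. Those of Rxrg between days or clones are a description. Genes, lists and tests were chosen with earlier results of these data known. Named genes were the receptors, the 5 of most similar pattern per receptor, and up to 4 of largest change per list, others being named after their values were seen. In simulated counts of 16723 genes with 200 changed 2-fold between days 0 and 2, 185 were recovered with 6 false calls. Deviations of same-numbered libraries of the genotypes correlated above 0.1 in 18 of 18 pairs (0.178 to 0.922). Across days 0 and 2, 0 and 6, and 2 and 6 they did so in 9, 8 and 11 of 12 pairs (mean r 0.374, 0.320 and 0.477). Replicate numbers thus paired the genotypes in every case and the days in most but not all. No replicates were duplicates (chi-square per degree of freedom 12.0 to 188).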

Additional observations from a re-analysis of the deposited data

Results flagged for a closer look

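Of 28 sets of 6 libraries compared within a genotype or a clone on 1 day, 1 had a library far from the others by Dixon's criterion, where chance alone gives about 1 in 20. The Rxra level of 233 CPM in replicate 2 of clone 48 with RxraWT at day 0 lay above the other 5 libraries of that clone and day, with a gap to the nearest of 0.677 of the whole range. Without this library the log2 fold change of Rxra between clones at day 0 was -0.49 (edgeR adjusted p = 0.0414), against -0.54 with it.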

How the results depend on the processing

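The rise of Rxra and Rxrb by day 2 and the fall of Rxra by day 6 kept direction and call under every alternative tried. The receptor genes stayed uncalled between genotypes. These alternatives included DESeq2 1.42.0, other size factors, other filters and each of the 36 libraries left out in turn. The ratio comparisons were rerun only with other pseudocounts, coding length, a replicate block and each library left out. Coding length adds a constant to every log2 ratio and could not alter a difference, and the block did not cover the clone comparisons. In these reruns the 7 ratio comparisons past the threshold kept direction and call. The other 6 stayed uncalled, with 5 of the 6 taking either sign. Among the 7 past the threshold, the Rxrg comparisons between days and clones reflect how the gene passed the filter and are a description. Those of Rxrb to Rxra between day 2 and the other days restate the known peak of Rxra. Rxra between days 0 and 2 ranged from 1.51 to 1.87 on the log2 scale. With library size alone, Rxra between clones at day 6 passed the threshold (-0.42) and Rxrb did not (0.24). Without a filter Rxrb at day 6 did not pass either (0.32), and with 1 library left out it ranged from 0.26 to 0.35. The cause was not tested. When a replicate block (each number within a clone) replaced the clone term and so paired libraries across days, the clone by time difference was called for Rxra from day 0 to 2 (0.48, edgeR adjusted p = 0.0244) and for Rxrb from day 2 to 6 (0.34, edgeR adjusted p = 0.0244), and 2248, 2082 and 1369 genes were called from day 0 to 2, 2 to 6 and 0 to 6, against 1144, 1033 and 644 without it. The block changed no other call. The numbers did not pair every library across days, so these values describe that setting alone. No paired fit of the clones within 1 day was possible because their replicates share only a number. The size of the Rxrg rise is set by the floor, and its counts of 7 to 15 in clone 66 limit its precision.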
